A study of Drosophila melanogaster with 3 samples.

Results

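A set of segment polarity genes was followed in a map of Deadpan (Dpn) binding in the embryo of the fruit fly Drosophila melanogaster. The 10 genes were en, inv, wg, hh, ptc, ci, nkd, mid, H15 and Wnt4, taken by name from 13945 protein-coding genes of the annotation, and each name matched 1 gene. The assay was chromatin immunoprecipitation followed by sequencing (ChIP-seq). The flies were a transgenic line with a stable Dpn fusion that carries green fluorescent protein (GFP) at its C-terminal end, and chromatin was pulled down with anti-GFP. Whole embryos of both sexes, 0 to 16 h old, gave 3 biological replicates of 1 group. No untagged or input library was analysed here, and the labels name an insertion that targets dpn without saying whether untagged copies remain. The labels give the same donor for all replicates, so they are 3 samples of 1 line. In whole embryos, strong binding in few cells and weak binding in many cells cannot be told apart.

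Segment polarity genes divide each body segment of the embryo into anterior and posterior parts. Cells that express the homeodomain genes en and inv secrete the ligand Hedgehog, their neighbours secrete the ligand Wingless, and each signal maintains the source of the other. Patched, the Hedgehog receptor, holds the pathway off without ligand, and the zinc-finger protein Cubitus interruptus (the product of ci) carries the signal to the genome. Naked cuticle (nkd) is an inhibitor of Wingless signalling that Wingless itself induces. Dpn belongs to the Hairy-type bHLH repressors and is best known from neural stem cells, and several segment polarity genes also set the row identity of those cells in the neuroectoderm.

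Sequences of 101 bases centred on summits are shown for wg, nkd, mid, H15 and Wnt4. Each is from the thresholded peak with the highest signal in the gene body or 10 kb around. A stronger peak 11008 bp upstream of wg lay outside this limit. The sites of ptc and inv are given below by position and value only. A summit is the position that the authors gave as the top of a peak. The list below also holds 3 further windows at H15 and Wnt4 in which a fixed word was found, a set chosen after the matches were seen. All are plus-strand sequence of Release 6 (dm6), 5′ to 3′, and none overlaps an annotated UTR. Capitals mark matches on either strand to 9 fixed words. These were the E-box forms CACGTG and CACGCG, the wider E-box CACGNG, the N-box CACNAG, the GAGA factor core GAGAG, the Pleiohomeotic core GCCAT, the Dref word TATCGATA, the word TAGCTA and the Zelda site CAGGTAG.
nkd start, chr3L:19045541-19045641: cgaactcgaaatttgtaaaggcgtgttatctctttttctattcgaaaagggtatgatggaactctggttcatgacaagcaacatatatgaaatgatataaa
mid downstream, chr2L:5476790-5476890: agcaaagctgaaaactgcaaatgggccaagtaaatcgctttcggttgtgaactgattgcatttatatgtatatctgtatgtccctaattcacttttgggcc
Wnt4 upstream, chr2L:7281584-7281684: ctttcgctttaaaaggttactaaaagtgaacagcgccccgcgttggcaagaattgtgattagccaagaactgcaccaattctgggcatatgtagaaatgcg
H15 downstream, chr2L:5425509-5425609: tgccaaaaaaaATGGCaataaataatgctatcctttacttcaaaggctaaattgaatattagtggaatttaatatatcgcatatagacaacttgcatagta
wg intron, chr2L:7313632-7313732: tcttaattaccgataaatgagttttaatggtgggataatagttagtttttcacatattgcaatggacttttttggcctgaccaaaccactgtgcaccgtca
H15 upstream, chr2L:5403674-5403774: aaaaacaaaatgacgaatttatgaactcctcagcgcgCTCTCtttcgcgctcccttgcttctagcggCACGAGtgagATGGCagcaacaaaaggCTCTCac
Wnt4 intron near CG31909, chr2L:7258226-7258326: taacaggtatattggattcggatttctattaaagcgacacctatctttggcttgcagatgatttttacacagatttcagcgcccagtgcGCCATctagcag
Wnt4 intron, chr2L:7262061-7262161: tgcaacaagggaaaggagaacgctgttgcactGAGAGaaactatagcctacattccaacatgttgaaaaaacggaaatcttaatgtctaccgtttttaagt

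The 5 strongest windows ranged from 27.7% GC at H15 to 44.6% GC at Wnt4. Of these, only the H15 window held any of the 9 words, and that word was GCCAT, the core of the site of the Polycomb recruiter Pleiohomeotic. The window upstream of H15 held the most words. Its CACGAG, an E-box-like word, matched both CACGNG and CACNAG, so the same 6 letters counted for both.

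Dpn-GFP summits were present at the start sites of 2 of the genes and in the bodies of 5. Within 500 bp of an annotated start, 2 of the 10 genes had a summit in the authors' thresholded list of 6253 peaks, namely nkd and ptc. Among all protein-coding genes the share was 27.7%, and among the 4031 genes at least as long as en, the shortest of the 10 at 4205 bp, it was 36.9%, so the start-site count was less than 1 gene from the share of all genes. In the gene body, from the first to the last annotated base, 5 of the 10 had a summit (inv, wg, ptc, nkd and Wnt4), against 35.4% of genes of that length and 14.1% of all genes. Long genes offer more sequence, and the 10 had a median span of 13026 bp, against 9755 bp for genes at least as long as en and 2166 bp for all genes. With 10 kb added on both sides, 7 of the 10 had a summit, with mid and H15 added, against 81% of the genes at least as long as en and 71.7% of all genes. A count of 10 genes moves by 10 percentage points with each gene, and no test was made over the list.

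**Figure D1:**
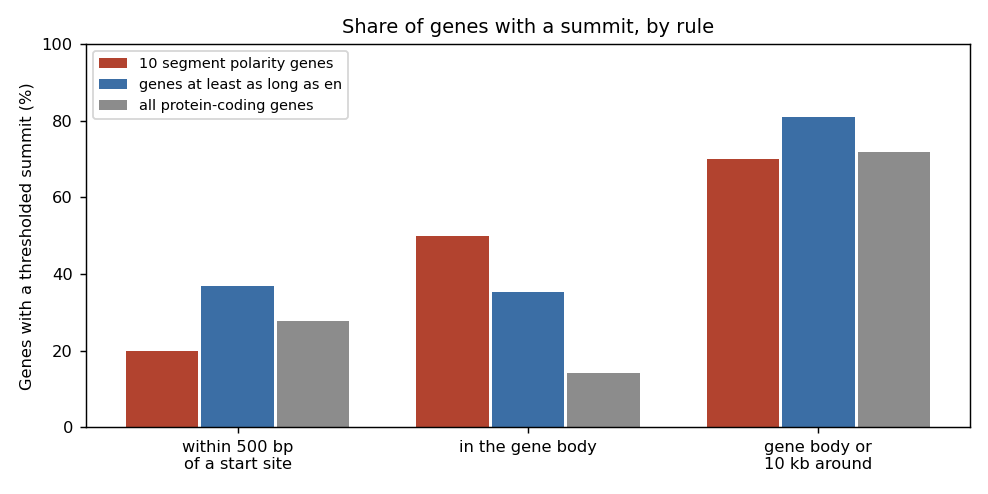
Share of genes in percent with a thresholded summit under each of 3 rules, for the 10 segment polarity genes, for the 4031 protein-coding genes at least as long as en and for all 13945 protein-coding genes. The 10 genes were at 20%, 50% and 70%, genes at least as long as en at 36.9%, 35.4% and 81%, and all genes at 27.7%, 14.1% and 71.7%.

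The windows of 7 genes held 26 thresholded summits in 24 separate peak regions, since a pair of peaks overlapped at inv and another at ptc. Their ranks by the authors' peak signal ran between 468 and 6157, with a median of 3262. Over all 6253 peaks the median is 3127 by construction. Of the 26 summits, 4 lay within 500 bp of a protein-coding start (15.4%, against 49.5% of all thresholded summits). Introns held 17 (65.4%, against 33.1%) and intergenic sequence 5 (19.2%, against 16%), and none lay in coding sequence or a UTR. The start of another protein-coding gene was nearer for 9 summits, and without them 17 summits remained. Noncoding genes were left out of this count, and some of the 17, at ptc, nkd, mid and H15, lay nearer to a noncoding start. The 17 remaining summits had a median distance of 5265 bp to the member's start, against 522 bp from any thresholded summit to its nearest protein-coding start. Of the 17, 5 lay upstream of the start and 12 downstream of it. Windows of a fixed size around genes hold distal sequence by design, so these shares describe the windows and not a preference.

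**Figure D2:**
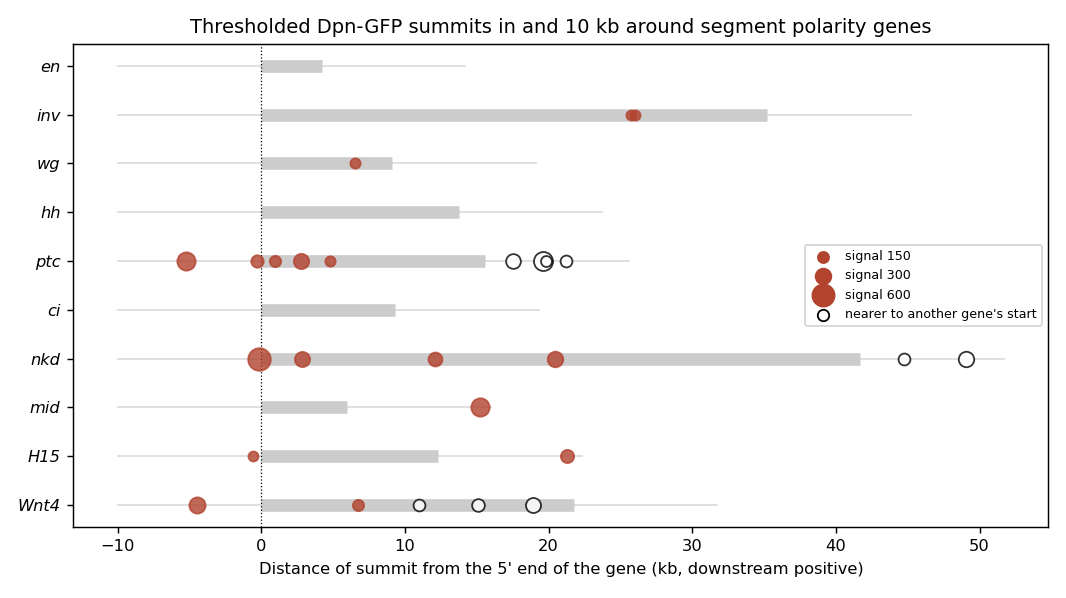
Position of each thresholded summit, in kb from the 5′ end of the gene along the direction of transcription. Grey bars are gene bodies and thin lines the 10 kb on both sides. The area of a circle is in proportion to the peak signal, and open circles are nearer to the start of another protein-coding gene. Only nkd and ptc had a summit within 500 bp of a start, and en, hh and ci had none in their windows.

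The strongest peak of the class lay at the start of nkd (FBgn0002945, chromosome 3L, 19003741 to 19045449, minus strand). The peak covered 19045466 to 19045731 and its summit was 142 bp upstream of the only annotated start. Its signal was 626.8, rank 468 in the thresholded list, and its sequence is the first one printed above. The overlapping peaks ranked 467 in replicate 1, 756 in replicate 2 and 386 in replicate 3. All 3 replicates therefore placed this peak among their first 1000, and their summits lay within 15 bp of the thresholded one. No other start site of the class was among the first 6253 peaks of every replicate, while 20.2% of all protein-coding genes had such a start.

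A further 3 summits lay in introns of nkd, a gene of 41709 bp. The one 2816 bp downstream of the start had a signal of 281.8 (rank 2089) and ranks of 2232, 1983 and 2185 in replicates 1, 2 and 3. Those ranks differed by 1.13-fold, the smallest spread of the 25 summits that had a peak in every relaxed replicate list. The others lay 12109 bp and 20465 bp downstream, with signals of 239.3 and 297.2, and both were among the first 6253 peaks of each replicate. Both were nearer to the start of the noncoding gene lncRNA:CR45940, at 560 bp and 8916 bp. The 2 remaining summits in the window of nkd were nearer to other protein-coding genes. The first lay 90 bp from the start of CG3808 (signal 172.9) and the second 568 bp from a start of CG18135 (signal 292.6).

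The Hedgehog receptor gene ptc (FBgn0003892, chromosome 2R, 8649649 to 8665223, plus strand) had the most summits, with 9 in its window. Of these, 5 had the start of ptc as the nearest protein-coding start. The intronic ones among the 5 were nearer to the start of the noncoding gene lncRNA:CR44281, at 885, 950 and 2934 bp. The strongest of the 5 lay 5265 bp upstream, in intergenic sequence, with a signal of 408.8 (rank 1102). It ranked 800, 1254 and 1231 in replicates 1, 2 and 3, so all replicates placed it high in their lists. The start itself had a weaker peak, with its summit 277 bp upstream, a signal of 188.9 and rank 3644. That peak ranked 4013 in replicate 2 and 3221 in replicate 3 but 7533 in replicate 1, outside the first 6253. In replicate 1 the summit of the overlapping peak was shifted by 282 bp and lay 5 bp from the start.

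Inside ptc, a summit 2797 bp downstream of the start had a signal of 286.3 and ranks of 2383, 1628 and 2505 in replicates 1, 2 and 3. The other intronic summits, at 962 bp and 4781 bp, were weaker and less repeatable. The one at 962 bp ranked 5790, 2820 and 8521, and the one at 4781 bp ranked 2567, 8959 and 8634. The latter spread of 3.49-fold was the widest of the 25 summits that had a peak in every relaxed replicate list. Beyond the 3′ end of ptc the 4 summits nearest to Acsl, a gene of a long-chain acyl-CoA synthetase, included the strongest of the window, at 1445 bp from an Acsl start with a signal of 443.9 (rank 947). The number at ptc thus includes the peaks of a neighbour that begins just past its end.

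Wnt4 (FBgn0010453, chromosome 2L, 7255419 to 7277171, minus strand), which encodes a Wnt ligand, had 5 summits and none at its start. The strongest lay 4463 bp upstream in intergenic sequence, with a signal of 322.0 (rank 1687) and ranks of 2653, 1308 and 1823 in replicates 1, 2 and 3. The other 4 were intronic, 6702 to 18895 bp downstream of the start, with signals between 155.3 and 277.3. Each of the 5 was among the first 6253 peaks of every replicate. The start of CG31909, which lies inside the body of Wnt4, was the nearest for 3 of the intronic summits, at 764 bp in the closest case. That summit ranked 5361 in replicate 1 and 1670 and 1920 in replicates 2 and 3.

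The ligand gene wg (FBgn0284084, chromosome 2L, 7307159 to 7316265, plus strand) had 1 thresholded summit, in an intron 6523 bp downstream of its start. Its signal of 129.5 (rank 5861) was close to the lower limit of the list, 122. It ranked 7803 in replicate 1, 6113 in replicate 2 and 5766 in replicate 3, so replicate 1 placed it outside the first 6253. The 29987 bp between Wnt4 and wg hold no other protein-coding gene and had 3 thresholded summits. The first is the upstream summit of Wnt4, and the other two lay 11008 bp (signal 293.4, rank 1951) and 11989 bp (signal 162.4, rank 4422) upstream of wg, just beyond its 10 kb limit.

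The T-box genes mid and H15, a related pair that lies side by side on chromosome 2L, had their strongest peaks far from their starts. The peak of mid (FBgn0261963, 5461639 to 5467610, plus strand) lay 9230 bp past the end of the gene and 15201 bp from its start. It had a signal of 413.3 (rank 1081) and ranks of 1283, 1083 and 1096 in replicates 1, 2 and 3. These differed by 1.18-fold, and the start of mid was the nearest protein-coding start.

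H15 (FBgn0016660, 5404280 to 5416593, plus strand) had a summit 8966 bp past its end with a signal of 213.6 (rank 3096). That summit ranked 5436, 2457 and 3136 in replicates 1, 2 and 3. A weak summit 556 bp upstream of the start, just outside the 500 bp limit, had a signal of 124.0 (rank 6157). It ranked 8202 in replicate 1 and 4141 in replicate 3, and no peak of the relaxed list of replicate 2 overlapped it. The 45045 bp between H15 and mid had 2 thresholded summits, or 4.44 per 100 kb, where the gap between Wnt4 and wg had 10 and that between inv and en 0 per 100 kb, against 4.67 over the 6 chromosome arms.

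The homeodomain genes inv and en are neighbours on chromosome 2R and had little binding above the threshold. In inv (FBgn0001269, 11474465 to 11509695, plus strand) a pair of overlapping peaks in an intron, 24467 and 24771 bp from the start, each had a signal of 125.6, at ranks 6076 and 6074. Their replicate peaks were the same ones, at ranks 4573, 5876 and 5685 in replicates 1, 2 and 3, so they count as 1 site. The gap of 14310 bp between inv and en had no thresholded summit. For en (FBgn0000577, 11524006 to 11528210, minus strand) the nearest thresholded summit was the inv site, 27404 bp away.

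The ligand gene hh (FBgn0004644, chromosome 3R, 23128169 to 23141906, minus strand) and the effector gene ci (FBgn0004859, chromosome 4, 47710 to 57041, minus strand) had no thresholded summit in their windows. The first summit outside lay 10063 bp from the body of hh (rank 2869) and 10242 bp from that of ci (rank 2292). For ci the start nearest to that summit is that of RpS3A, a ribosomal protein gene. Single replicates did hold peaks in hh. A summit in the body ranked 3813 in replicate 1 (2067 bp downstream of the start) and 5238 in replicate 2 (2164 bp), while the best in replicate 3 ranked 9613 and lay elsewhere, 8370 bp downstream. The pooled list had its best hh body summit at rank 8022.

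**Figure D3:**
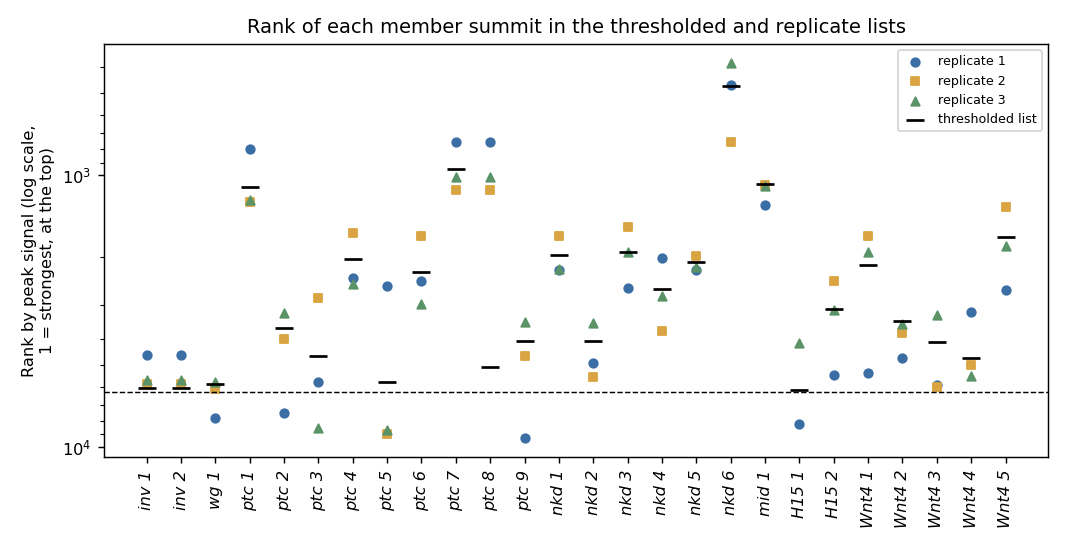
Rank by peak signal, on a log scale with the strongest at the top, of the 26 thresholded summits and of the strongest overlapping peak in each replicate list. Summits are numbered along the chromosome within each gene, and the dashed line is rank 6253. The start peak of nkd (nkd 6) was the strongest, and the summits below the line in at least 1 replicate were at wg, ptc and H15.

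Replicate support was close to that of the whole list. A peak among the first 6253 of every replicate overlapped 20 of the 26 (76.9%, against 68.1% of all thresholded peaks). In 4 cases 2 replicates did (15.4%, against 23.7%) and in 2 cases 1 replicate did (7.69%, against 7.77%). The highest and lowest replicate ranks of a summit differed by a median of 1.67-fold over 25 summits, against 1.7-fold over 6071 thresholded peaks with a peak in each relaxed list. The overlapping pair at inv and that at ptc each shared the same replicate peaks. The counts and the median include both summits of each pair. The thresholded list came from the same replicates, so replicate support is no independent check of it.

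Cut at the first 6253 peaks, the replicates placed start-site summits at 1 gene (nkd) in replicate 1, 2 genes (nkd and ptc) in replicate 2 and 3 genes (nkd, ptc and wg) in replicate 3. Over all genes the shares were 27.7%, 25.4% and 27.9%. The wg call of replicate 3 stood at rank 6229, next to the limit. A body summit was present for 5, 6 and 5 of the 10 genes in replicates 1, 2 and 3, against 14.9%, 14.1% and 14.2% of all genes. Those shares take no account of gene length. In the thresholded list the body share was 35.4% among genes at least as long as en, and it was not computed for the replicates. With 10 kb around, 7, 9 and 7 of the 10 had one, against 71.1%, 71.1% and 71.5%.

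The relaxed lists hold weak peaks and background by design. In the relaxed pooled list of 30000 peaks, 9 of the 10 genes had a start-site summit, all except H15. The share was 73.1% among genes at least as long as en and 54.2% among all genes. A body summit was present for 9 genes, against 73.3% and 37.1%, and a summit in the body or 10 kb around for all 10 genes, against 96.6% and 91.9%. Most start-site summits of the class were therefore weak. Apart from nkd and ptc, the best pooled ranks were 9199 for wg, 11610 for hh, 12175 for Wnt4, 12179 for ci, 12281 for mid, 15846 for en and 17089 for inv.

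Ranks at these weak start sites varied between replicates. At en the best start-site rank was 7178 in replicate 1, 18692 in replicate 2 and 14631 in replicate 3. At ci it was 7879, 16614 and 8326, and at wg 14012, 17086 and 6229. Replicate 2 had no start-site peak at hh or mid, and its relaxed list is the shortest, with 22475 peaks against 30000 in replicates 1 and 3. At H15 only replicate 1 had one, at rank 25675. The −log10 of the q-value, as deposited, was 0.60 at en, 0.49 at inv and 2.21 at wg in the pooled list, against the single value of 4.12 shared by every thresholded peak.

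**Figure D4:**
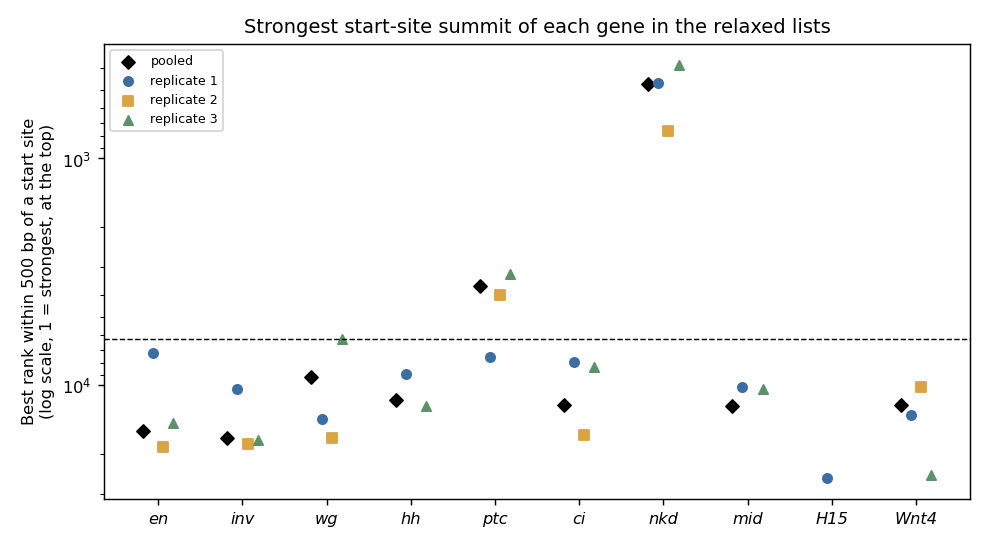
Best rank, on a log scale with the strongest at the top, of a summit within 500 bp of a start of each gene in the pooled list and in the 3 replicate lists. A missing mark means that the list had no such summit, and the dashed line is rank 6253. In the pooled list, nkd at rank 468 and ptc at rank 3644 were above the line.

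Fixed DNA words were counted within 50 bp of the 26 summits and compared with all thresholded summits as a description. None of the 26 held CACGTG or CACGCG, the sites known for Hairy-type repressors. Over all 6253 summits the shares were 0.8% and 1.18%. Within 100 bp of the summit, CACGCG was at 2 of the 26 (7.69%, against 3.17%), in the windows of H15 and ptc, and CACGTG was at none (against 1.95%). TATCGATA, TAGCTA and CAGGTAG were also absent from the 26, at shares of 2.46%, 3.52% and 0.336% over all summits. Within 100 bp, TAGCTA and CAGGTAG were at 1 summit each (3.85%, against 6.3% and 0.896% of all summits). GCCAT was present at 6 (23.1%, against 14.8%), in the windows of inv, ptc, nkd, H15 and Wnt4. GAGAG was present at 5 (19.2%, against 9.18%), in the windows of ptc, nkd, H15 and Wnt4. Only 4 of the summits with GCCAT and 2 of those with GAGAG had the member's start as the nearest protein-coding start. Windows 500 bp to the left held GCCAT at 5 of the 26 (19.2%, against 18.2% of such windows over all summits). They held GAGAG at 7 (26.9%, against 14.2%), so the GAGAG share was not higher at the 26 summits than beside them. CACGNG and CACNAG were each found once, at the upstream summit of H15 (3.85%, against 4.35% and 10.3% of all summits). Within 100 bp, CACGNG was at 2 (7.69%, against 9.84%) and CACNAG at 6 (23.1%, against 20%), so the order of the CACNAG shares turned with the window. The median GC content was 33.7% in both sets. Absence of a word says only that its letters are not in the window.

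Other genes of the same pathways were set beside the 10. Over all genes the shares for the start site, the body and the body or 10 kb around are 27.7%, 14.1% and 71.7%, and over genes at least as long as en 36.9%, 35.4% and 81%. Of 17 Hedgehog pathway genes, 9 had a start-site summit (52.9%), 5 a body summit (29.4%) and 15 a summit in the body or 10 kb around (88.2%). The strongest at a start were rdx, an adaptor for the degradation of Ci (signal 851.5, rank 241), sotv, a gene of heparan sulfate synthesis (467.0, rank 866), and CkIalpha, a kinase that acts on Ci (289.1, rank 2006). The start-site peak of rdx ranked 332, 246 and 215 in replicates 1, 2 and 3.

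Of 18 Wingless pathway genes, 7 had a start-site summit (38.9%, against 27.7% of all genes), 7 a body summit (38.9%, against 14.1%) and 16 a summit in the body or 10 kb around (88.9%, against 71.7%). The first 2 shares were close to those of genes at least as long as en. The kinase genes gish (3710.0, rank 4) and sgg (898.6, rank 209) and the glypican gene dlp (499.3, rank 751) had the strongest start-site peaks. Of 4 other Wnt ligand genes, Wnt6, which encodes a further Wnt ligand, had a start-site summit (176.0, rank 3984), 310 bp from its start. None of the 4 had a body summit, and 2 had a summit in the wider window. Of 15 partners in the segment pattern, 2 had a start-site summit (13.3%, against 27.7% of all genes), 4 a body summit (26.7%, against 14.1%) and 12 a summit in the wider window (80%, against 71.7%). The start-site peaks of the partners were at bowl, a zinc-finger gene (872.0, rank 227), and lin (230.0, rank 2778), and that of lin was nearer to the start of Pgi. Another gene's start was also nearer to the start-site peaks of slmb, smo and boi in the Hedgehog list and of wls in the Wingless list. These lists were not matched to the 10 genes in gene length or breadth of expression, and no test compared them with the 10 genes.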

How the data were processed

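Peak lists of 3 replicates, of the pooled replicates and a thresholded set were used on dm6, 5 lists in all. The peak signal (column 7) is the authors' deposited value, in a scale that is not stated, and ranked peaks within a list only. The −log10 of the q-value was also deposited by the authors. Aligner, peak caller, read depth and limit of the irreproducible discovery rate are not given in the sources used here; per the labels, fragments were 200 to 800 bp. The lists on dm3 were not used here. Summits were column 2 plus column 10, printed 1-based. Gene models were Ensembl release 115 (BDGP 6.54) and sequence was RefSeq Release 6 on arms 2L, 2R, 3L, 3R, 4 and X; all 6253 thresholded peaks lay on them and were the first 6253 of the pooled list. Replicate peaks were matched by an overlap of at least 1 bp, taking the strongest. Background shares are over all protein-coding genes. No test was made, since there is 1 group. All 10 genes are described in full, with the 3 strongest start-site genes of each pathway list and genes named because of a nearer start. Nearest starts are those of protein-coding genes unless stated. The members and lists were chosen with earlier results of these data known. WntD was not matched. The counting rules were checked on planted summits. Python 3.11.15 was used.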

Additional observations from a re-analysis of the deposited data

How the results depend on the processing

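The count of genes with a start-site summit was 2 of 10. It was 1 with the 3126 strongest thresholded peaks, with peaks found in all 3 replicates, or with a start window of 250 bp. A start window of 1000 bp, or the peak interval in place of the summit, raised it to 3. With the relaxed pooled list it was 9, against 54.2% of all genes and 73.1% of genes at least as long as en. With each replicate left out in turn it was between 1 and 2. It was 1 without replicate 2 or replicate 3, since the ptc peak ranked outside the first 6253 of replicate 1. The body count (5) was 3 with those 3126 peaks, and between 4 and 5 with each replicate left out. With the relaxed pooled list it was 9, against 37.1% of all genes and 73.3% of genes at least as long as en. No share of all genes was set beside the counts with fewer peaks, another start window or the peak interval. Changes in those counts therefore cannot be read as particular to these genes. Starts found in all 3 replicates (1) were 2 at 2 times the rank limit, and between 1 and 2 with a replicate left out. Summits with at least 1 word from a subset of 6 of the 9 words (10 of 26) were 5 with 25 bp either side. They were 15 with 100 bp either side. A wider window contains the narrower one, so this count can only stay or rise with width. No share of all 6253 thresholded summits was set beside it, so it does not show that words were frequent at these summits. The count in the body or 10 kb around (7) was between 5 and 10 in all settings run. It reached 10, the most possible, with the relaxed pooled list, against 91.9% of all genes and 96.6% of genes at least as long as en. A flank of 15 kb, added after the data were seen, gave 9 of 10 genes, against 79.3% of all genes. Read depth is not known, so a missing peak does not show that binding is absent.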
